A study of Homo sapiens with 104 samples.

Results

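MT1 is a human lymphoblastoid (B-cell derived) line that was obtained from the line TK6 by selection for resistance to alkylating agents and is deficient in mismatch repair. Oligonucleotide arrays gave its transcript levels in untreated cells and after exposure to MNNG, a methylating agent. Of the 4 MT1 arrays, 2 untreated and 2 MNNG by their titles, 3 were kept: both untreated arrays and MNNG replicate 2. MNNG replicate 1 was left out because its probe set for the 5' end of a spiked-in cre transcript lay 5.34 log2 units below a second one, past the limit of 2 that was applied to every MNNG array. By this rule 82 arrays of the series remained and 22 were left out. These include 4 arrays of TK6, the parent line, untreated and MNNG in duplicate, and 75 arrays of a panel of other lymphoblastoid lines, 19 of which kept an MNNG array. All lines were grown to mid log phase. The labels give no dose, length of exposure or killing, and do not state whether duplicates came from separate cultures, so p-values may measure technical spread alone.

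MNNG methylates DNA, and its most toxic product is a guanine methylated at its oxygen atom. The protein MGMT removes that methyl group, and cells such as TK6 and MT1, which lack MGMT, keep the lesion until it is copied and mispairs with thymine. The mismatch is recognised by a protein dimer that contains MSH6, and the processing that follows activates checkpoint kinases, growth arrest and apoptosis. Cells whose mismatch repair is defective tolerate the lesion and survive, at the price of mutations. MT1 carries defects in MSH6, and TK6, which processes the mismatch, served here as the comparison. MT1 is a selected clone and may differ from TK6 in other ways, so a difference between the lines and the loss of mismatch repair cannot be told apart in this design. The panel holds lines with low MGMT and lines that express it, which were pooled here. A place inside or outside the panel range therefore cannot be tied to mismatch repair.

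Levels below are log2 of the intensity plus 16, after quantile normalisation, on a scale that starts at 5. Because 1 MT1 MNNG array remained, the spread came from the duplicates of all 47 groups in the fit, and the lone array was assumed to vary like them. Changes are given as MNNG minus untreated with the standard error of that fit. Adjusted p-values are those of limma with Benjamini-Hochberg adjustment over 13842 genes, and a gene was said to rise or fall only at an adjusted p below 0.05. The median intensity was 37.8 and 21.3 on the untreated MT1 arrays and 44.9 on the MNNG array, within the range of 16 to 64.4 over the other arrays kept. The share of probe sets at the intensity floor near 16 differed, however. It was 1.12% and 36.8% on the untreated MT1 arrays and 0.0384% on the MNNG array, and its part in the rises was not tested. The untreated MT1 arrays correlated at 0.981 across probe sets and with the MNNG array at 0.985 and 0.974, whereas the array left out correlated with them at 0.505 to 0.518. B-cell markers fitted the labelled cell type in part: CD79A lay at 10.2, 10.5 and 10.4 and PAX5 at 10.1, 9.79 and 9.87 on the 3 arrays, while BLK and CR2 lay near the bottom of the scale. CD79B lay at 7.37, 7.49 and 7.47 and CD22 at 7.69, 7.90 and 7.52. MS4A1, which encodes CD20, lay at 6.45, 6.37 and 6.88, against 11.3 and 11.1 on the untreated TK6 arrays. Markers of T and NK cells did not exceed 6.36, and of the myeloid markers only LYZ passed 6 (7.41 and 5.55 untreated, 7.54 with MNNG). COL1A1, a fibroblast gene, lay at 7.37, 6.47 and 7.07.

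The response of MT1 was small beside that of TK6. After MNNG 326 genes rose and 167 fell in MT1, which is 3.56% of the genes tested, 2.36% rising and 1.21% falling. At a change of at least 1.5-fold there were 123 rises (0.889%) and 62 falls (0.448%). In TK6 2996 genes rose (21.6%) and 2701 fell (19.5%), or 41.2% of the genes. The counts given for gene lists below are to be read beside these shares. The SD of the change across genes was 0.29 log2 units in MT1 and 0.63 in TK6. In all 493 MT1 calls the MNNG array lay outside both untreated arrays. A call already needs a distance of that array from their mean, so this is no separate support. The call count rests on the shared estimate of the spread and on the array rule: it was 1 when TK6 and MT1 arrays were fitted alone, 2 with the MT1 arrays alone, and 14 (8 up, 6 down) when the arrays left out were added back. It was 212 without untreated replicate 1 and 329 without replicate 2, and 107 of the 493 calls (67 rises, 40 falls) were made in both of these fits. Scaling moved the split: values as deposited gave 92 rises and 7 falls, with a median change of all genes of 0.31, and centring on array medians gave 15 rises and 52 falls, with a median of -0.13, against 0.03 after quantile normalisation. Below, a call kept or lost without either untreated array refers to fits that drop 1 of them at a time. All of these fits hold the same MNNG array, so they cannot probe that array. Each gene was read from its brightest probe set. Among called genes with 2 or more probe sets at a level of at least 7, a probe set had the opposite sign in 24 of 89 rises and 30 of 92 falls. Averaging all probe sets ended the MT1 calls of STC2 (adjusted p = 0.0666), HSPA5 (0.0678), CCNE2 (0.140), EGLN1 (0.292) and MS4A1 (0.197), and gave SESN2 a fall of 0.74 in MT1 (adjusted p = 0.00162). It also ended the difference between the lines for ZNF138 (-0.41, adjusted p = 0.116).

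Most MT1 changes pointed the same way in TK6. Of the 493 genes, 305 (61.9% of the MT1 calls and 5.35% of the TK6 calls) were called in the same direction in TK6, 45 (9.13%) in the opposite direction, and 143 were not called there. Of the 305 shared genes, 229 had the smaller change in MT1. The difference between the 2 responses, tested in the same fit, was called for 3415 genes (24.7%), with 1682 changing more positively in TK6 and 1733 more negatively. With every array included that count was 126. Of the 76 shared genes with the larger change in MT1, the difference passed for 3, namely CEBPB, SLC30A1 and ZNF138. It did not pass for CEBPB without MT1 untreated replicate 2 (adjusted p = 0.171), for SLC30A1 without MT1 untreated replicate 1 (0.0574) or for ZNF138 without TK6 MNNG replicate 1 (0.0837).

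**Figure D1:**
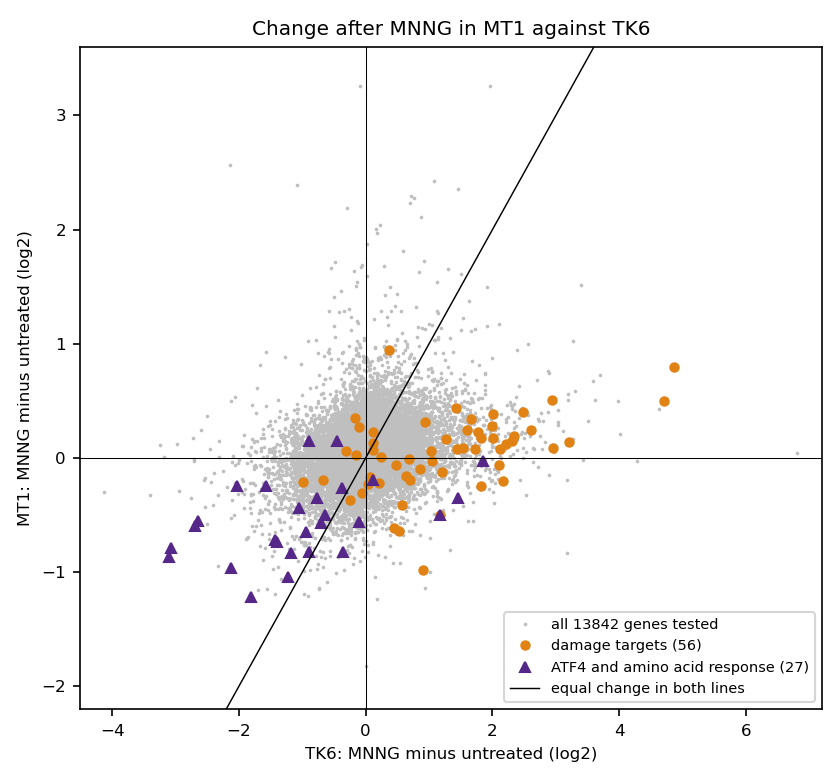
Change after MNNG (MNNG minus untreated, log2) in TK6 on the x axis and in MT1 on the y axis for the 13842 genes tested, with the line of equal change. Damage targets (circles) spread to the right along TK6 and lie on both sides of 0 in MT1, with a median of 0.08 in MT1 against 1.11 in TK6. The ATF4 and amino acid response genes (triangles) lie mostly below 0 in MT1 too.

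For the transcripts that DNA damage induces, the median MT1 change lay near that of all genes. Single changes ran from -0.985 to 0.948, with 34 above 0 and 22 below. With 1 MNNG array, a gene that did not pass may still have changed. Of the 60 genes in 3 lists of damage targets 56 were tested: 3 rose, 3 fell and 50 did not pass in MT1, with a median change of 0.08 against 0.03 over all genes. In TK6 41 of the same 56 rose and 2 fell, with a median of 1.11. The difference between the responses passed for 41 of them, 40 of which changed more positively in TK6, so that 71.4% of the list was called in that direction against 12.2% of all genes. With every array included, 6 damage targets passed with the more positive change in TK6.

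Among genes of growth arrest and of feedback on the damage signal, 2 of 18 tested fell and none rose in MT1, while 15 rose and 1 fell in TK6. CDKN1A, the inhibitor of cyclin-dependent kinases that halts the cell at G1, had levels of 9.02 and 9.07 untreated and 9.13 with MNNG in MT1, and 9.50 and 9.61 untreated and 12.6 and 12.4 with MNNG in TK6. The TK6 groups lay far apart, and the MT1 arrays lay close together. The change was 0.09 ± 0.10 in MT1, with a 95% confidence interval of -0.12 to 0.29, and the response of TK6 exceeded it by 2.87 (adjusted p = 1.84e-20). MDM2, the ubiquitin ligase that is itself a target and restrains the damage response, went from 9.12 and 9.47 to 9.80 in MT1, a change of 0.50 ± 0.18 that did not pass (adjusted p = 0.126), against 2.95 in TK6. The mean over all MDM2 probe sets changed by 0.11 in MT1. SESN1, which restrains the growth kinase mTORC1, changed by 0.08 in MT1 and 2.12 in TK6, PPM1D, a phosphatase that switches the checkpoint off, by -0.25 and 1.82, TRIM22 by 0.13 and 2.21, and GADD45A, a growth-arrest gene, by 0.25 and 1.60, and none of these passed in MT1.

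The 2 falls among the arrest genes were ATF3 and ZMAT3. ATF3, a stress-induced transcription factor, had levels of 8.39 and 8.46 untreated and 7.81 with MNNG in MT1 and fell by 0.62 ± 0.13 (adjusted p = 0.00527), whereas it rose by 0.45 in TK6. Its call was also made without either untreated array. ZMAT3, an RNA-binding protein, fell by 0.98 on its brightest probe set. Of its 5 brighter probe sets 2 rose and 3 fell in value, its mean over all probe sets changed by -0.21 (adjusted p = 0.329), and without untreated replicate 1 its adjusted p was 0.147.

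In the apoptosis list 1 of 17 rose and 1 fell in MT1, against 11 and 1 in TK6. PMAIP1, which encodes the BH3-only protein NOXA, went from 11.3 and 11.5 to 10.7 in MT1 and fell by 0.64 ± 0.16 (adjusted p = 0.0146), while it rose by 0.52 in TK6. Its second probe set, at a level of 10.8, changed by -0.04 (-0.34 for the mean of both, adjusted p = 0.0314). The fall lost the call without untreated replicate 2 (-0.56, adjusted p = 0.0970) and with every array included its change was 0.26. TNFSF4, the OX40 ligand, rose in MT1 from 6.72 and 6.63 to 7.47, by 0.80 ± 0.15 (adjusted p = 8.98e-04), and in TK6 by 4.87, from 5.24 and 5.44 to 10.2 and 10.3. TNFSF4 kept its call without either untreated array. The death receptor gene FAS (-0.13 in MT1, 1.20 in TK6) and the nuclease gene AEN (0.09 and 1.53) did not pass in MT1 and rose in TK6. TNFRSF10B, a receptor for TRAIL, was at -0.09 in MT1 and rose by 0.86 in TK6 on its brightest probe set, but its other 2 bright probe sets changed by -0.984 and -0.998 in MT1. Over all its probe sets TNFRSF10B fell by 0.51 in MT1 (adjusted p = 0.0278), and the difference between the lines did not pass (0.45, adjusted p = 0.0611). BAX, the pore-forming effector of mitochondrial apoptosis, passed in neither line (-0.37 and -0.24).

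In the list of repair and metabolism targets 2 of 21 rose and none fell in MT1, against 15 rises in TK6. TIGAR, a regulator of sugar phosphate metabolism, went from 8.43 and 8.48 to 8.86 in MT1 (0.41 ± 0.09, adjusted p = 0.00798) and from 8.39 and 8.25 to 10.8 on both MNNG arrays in TK6. RPS27L, a ribosomal protein paralogue, rose by 0.44 ± 0.11 in MT1, from 11.1 and 11.3 to 11.7, and by 1.43 in TK6. Both MT1 rises were also within the range of the panel lines, whose median changes were 0.40 for TIGAR and 0.30 for RPS27L. Neither passed without untreated replicate 1 (adjusted p = 0.0596 and 0.149), and with every array included both lay below 0 (-1.05 and -2.55). The lesion recognition genes of nucleotide excision repair did not pass in MT1, with XPC at -0.20 and DDB2 at -0.03 against 2.17 and 1.05 in TK6. RRM2B, a subunit of ribonucleotide reductase, was at 0.15 against 2.31, and POLH, a translesion polymerase, at 0.34 against 1.66. The other bright POLH probe sets lay at -0.86 and 0.21 in MT1.

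**Figure D2:**
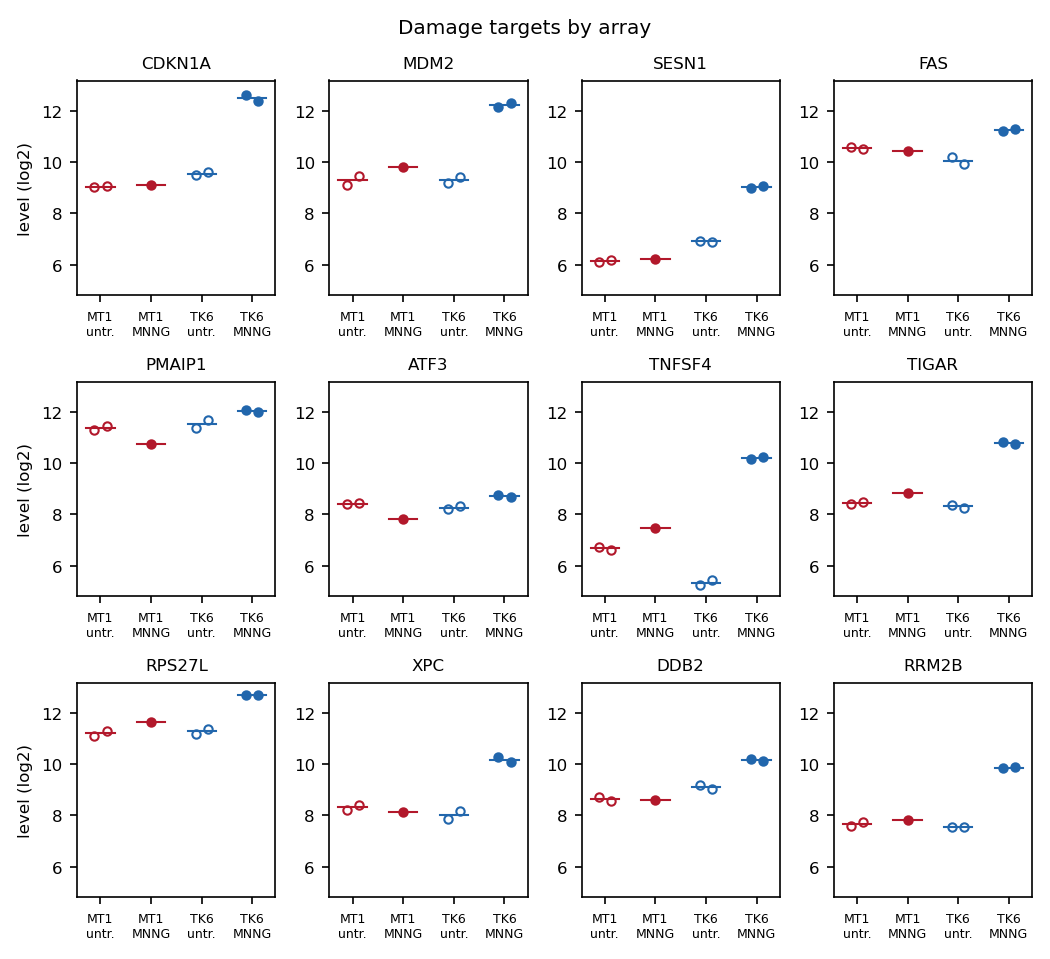
Levels (log2) of 12 damage targets on each array of MT1 (untreated 1 and 2, MNNG replicate 2) and TK6 (duplicates), untreated as open and MNNG as filled circles, with a line at the group mean. CDKN1A stays at 9.02 to 9.13 on the 3 MT1 arrays and reaches 12.4 and 12.6 in TK6 with MNNG, and PMAIP1 and ATF3 lie lower with MNNG in MT1 and higher in TK6.

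Of the 28 gene lists, the one whose median moved most in MT1 was the ATF4 and amino acid response. These are genes that the transcription factor ATF4 induces when amino acids are short or the ER is stressed. All 27 genes of the list were tested: 14 fell, none rose and 25 lay below 0, with a median of -0.56 against 0.03 over all genes and 1.21% of all genes falling. Over all 13842 genes 6104 lay below 0 in MT1. The lists were chosen with earlier results of these data known, so the contrast with all genes is no test. In TK6 21 of the 27 fell and 3 rose, with a median of -0.95. The difference between the lines passed for 16 of the 27, with 11 changing more negatively in TK6 and 5 less. Without untreated replicate 1 the falls in MT1 numbered 7, on values as deposited 3, and with every array included none.

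Genes that charge transfer RNAs with amino acids held the largest falls. GARS1, the glycyl enzyme, went from 11.0 and 11.2 to 9.86 and fell by 1.22 ± 0.23, a 2.33-fold drop (adjusted p = 9.42e-04). AARS1, the alanyl enzyme, went from 10.2 and 10.1 to 9.18 and fell by 0.96 ± 0.12 (adjusted p = 1.36e-06), against a fall of 2.12 in TK6, where levels went from 11.6 and 11.7 to 9.59 and 9.44. In both genes the MNNG array lay well below the untreated MT1 arrays, which were close together, and both kept the call without either of them. EPRS1 fell by 1.05 but lost the call without either untreated array (adjusted p = 0.0598 and 0.0734), and CARS1, which fell by 0.57, did so without replicate 1 (-0.34, adjusted p = 0.374). WARS1, the tryptophanyl enzyme, which is also induced by interferon, fell by 0.35 in MT1 and rose by 1.46 in TK6, and without untreated replicate 1 its adjusted p was 0.256.

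Of the enzymes that make amino acids and the carriers that import them, some fell and others did not pass. ASNS, asparagine synthetase, had levels of 10.0 and 9.91 untreated and 9.18 with MNNG, a fall of 0.79 ± 0.08 (adjusted p = 1.64e-08). In TK6 it went from 11.4 and 11.3 to 8.31 and 8.21, so the TK6 fall was larger by 2.29. CTH, which makes cysteine from cystathionine, went from 7.92 and 8.09 to 7.13 and fell by 0.87 in MT1 and by 3.10 in TK6. Both kept the call without either untreated array. PHGDH, the first enzyme of serine synthesis, fell by 0.56 in MT1 and 2.64 in TK6. SLC7A11 and SLC3A2, the subunits of the cystine carrier, fell by 0.82 and 0.74 in MT1 and by 0.89 and 1.40 in TK6. SLC7A5, another partner of SLC3A2, was at -0.72 and did not pass (adjusted p = 0.0841), nor did the serine and glycine enzymes PSAT1 (-0.35), PSPH (-0.56) and SHMT2 (-0.24) or the glutamine carrier SLC1A5 (-0.50). PHGDH, SLC7A11 and SLC3A2 did not pass without untreated replicate 1 (adjusted p = 0.0904, 0.252 and 0.0900).

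Of the transcription factors and stress effectors on the list, ATF4 itself went from 11.5 and 11.2 to 10.9 and did not pass in MT1 (-0.44 ± 0.14, adjusted p = 0.0763), while it fell by 1.06 in TK6. Without untreated replicate 2 its MT1 change was -0.58 and passed (adjusted p = 0.0397), and the difference between the lines did not (-0.48, adjusted p = 0.0798). CEBPB, a bZIP factor, went from 9.40 and 9.62 to 8.69 in MT1 and fell by 0.82 ± 0.13 (adjusted p = 1.04e-04), more than in TK6 (0.35, adjusted p of the difference 0.0344). DDIT3, the factor CHOP, fell by 0.65 in MT1 and 0.95 in TK6, and CHAC1, which degrades glutathione, by 0.84 and 1.18. STC2, a secreted glycoprotein, changed by -0.59 in MT1 and -2.69 in TK6, and TRIB3, a pseudokinase, was at -0.25 in MT1 and fell by 2.03 in TK6. Without untreated replicate 1, DDIT3 and STC2 had adjusted p-values of 0.0656 and 0.161, and without replicate 2, CHAC1 had 0.0673 and STC2 0.0576. The MT1 change lay below that of all 19 panel lines for 15 of the 27 genes and above all of them for 1, together 59.3%, against 10.7% of all genes outside the panel range. In this set were ASNS (panel median -0.13) and CEBPB (-0.05). Of the genes that fell in MT1, 10 of 14 on the list (71.4%) and 88 of all 167 (52.7%) lay below every panel line.

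**Figure D3:**
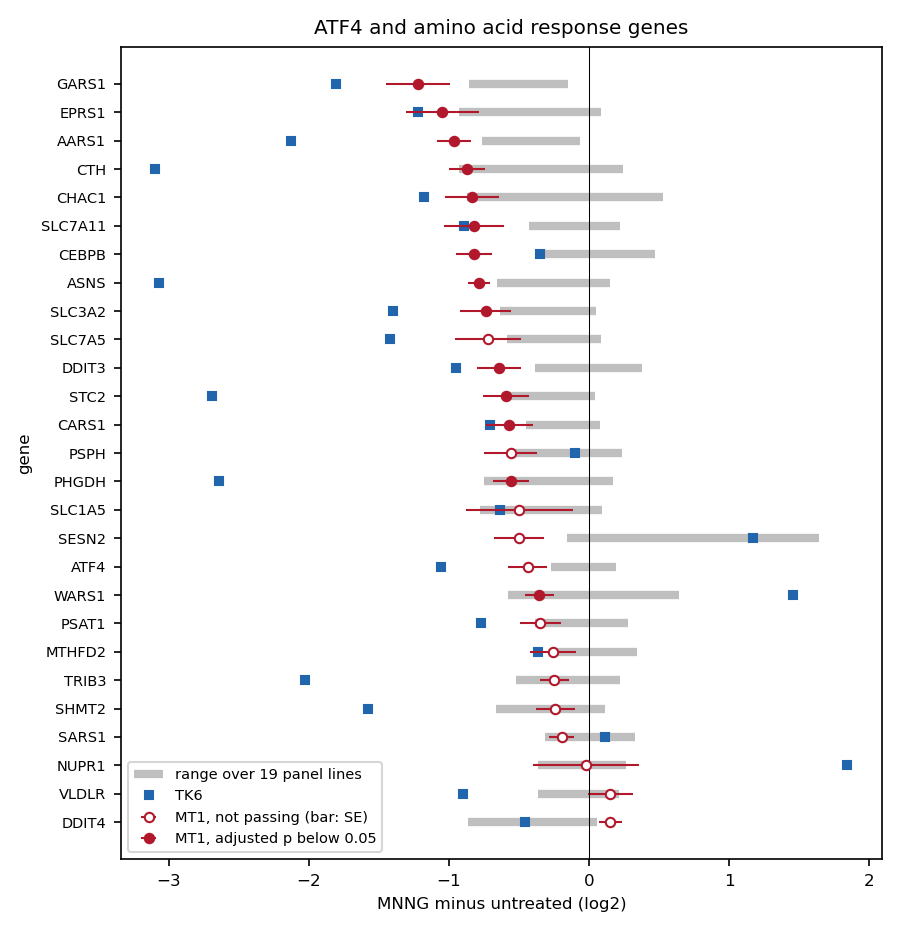
Change after MNNG (log2) of the 27 ATF4 and amino acid response genes in MT1 (circles, filled where the adjusted p is below 0.05, with bars of 1 SE), in TK6 (squares) and over the 19 panel lines (grey bars from lowest to highest). In MT1 25 of the 27 lie below 0, and GARS1, AARS1 and ASNS lie below every panel line and above TK6.

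The promoters of these genes are shown because members of the list fell together in both lines. ATF4 binds a composite element whose core was searched as TGATGNAA, on both strands, in the window from 250 bases before to 50 after each RefSeq start site (GRCh38.p14). A match was present in 5 of the 13 promoters found for list genes that fell in MT1 (38.5%), in AARS1, ASNS, CARS1, CHAC1 and SLC3A2, and in none of the 10 found for list genes that did not pass. It was present in 6 of 126 promoters (4.76%) of the other genes that fell in MT1, in 2 of 43 (4.65%) of the damage targets, in 2.03% of the promoters of genes tested, and in 3.67% of all 27305 windows. A match is a description of letters and no evidence of binding. The list was made of genes that ATF4 induces, so a higher share than over all genes can come from that choice. The shares are therefore no test. The 250 bases before the start site are printed for the 3 genes whose match lies fully upstream, on the strand of the gene, with the match in capitals. AARS1 is at chr16:70289507-70289756 on the minus strand, with the match at position -187 relative to the start site and read on the opposite strand. ASNS is at chr7:97872409-97872658 on the minus strand, with the match at -68. CHAC1 is at chr15:40953221-40953470 on the plus strand, with the match at -209 and read on the opposite strand.
AARS1: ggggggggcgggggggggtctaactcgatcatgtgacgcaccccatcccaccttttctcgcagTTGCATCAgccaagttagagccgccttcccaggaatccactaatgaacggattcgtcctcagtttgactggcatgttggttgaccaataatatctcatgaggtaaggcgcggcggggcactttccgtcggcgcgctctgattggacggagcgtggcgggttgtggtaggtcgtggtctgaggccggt
ASNS: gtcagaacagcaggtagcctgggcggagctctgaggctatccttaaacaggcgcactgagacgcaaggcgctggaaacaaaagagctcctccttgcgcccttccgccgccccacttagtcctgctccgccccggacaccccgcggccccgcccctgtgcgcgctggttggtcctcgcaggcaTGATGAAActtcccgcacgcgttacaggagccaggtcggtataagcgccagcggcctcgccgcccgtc
CHAC1: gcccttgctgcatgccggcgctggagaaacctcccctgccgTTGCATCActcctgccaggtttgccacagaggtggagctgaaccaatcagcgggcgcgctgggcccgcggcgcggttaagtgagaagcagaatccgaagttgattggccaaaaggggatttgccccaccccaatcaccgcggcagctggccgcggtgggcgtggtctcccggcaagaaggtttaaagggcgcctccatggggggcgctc

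MYC fell in both lines, while no ribosome biogenesis gene passed as a fall in MT1. MYC, a transcription factor that drives growth, went from 11.2 and 11.1 to 10.2 in MT1 and fell by 0.94 ± 0.15 (adjusted p = 8.61e-05), and in TK6 it went from 11.2 on both arrays to 8.98 and 8.73. The MYC fall in MT1 kept its call without either untreated array and lay within the panel range (median -0.69). Of 23 genes of ribosome biogenesis tested 3 rose and none fell, with a median of 0.12. NOP58, a core protein of box C/D snoRNPs, rose by 0.58 ± 0.09 in MT1, from 10.0 on both arrays to 10.6, and did not pass in TK6 (0.17). RRS1, a ribosome assembly factor, rose by 0.53 in MT1, and without untreated replicate 1 its adjusted p was 0.114. None of the 20 ribosomal protein genes passed in MT1, where limma gave 2 an unadjusted p below 0.05.

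Sterol and fatty acid synthesis genes all lay below 0 in MT1 (18 of 18, median -0.39), but only SCD, the desaturase that makes oleate, passed. On its brightest probe set SCD fell by 0.52 in MT1, from 12.0 and 12.3 to 11.6, and by 2.13 in TK6, and without untreated replicate 2 that MT1 change was -0.38 (adjusted p = 0.250). The other 3 SCD probe sets changed by -1.52, -1.86 and -2.05 in MT1, at levels of 11.0, 9.52 and 9.71, and the mean over all of them fell by 1.49 (adjusted p = 2.16e-04), with TK6 lower by a further 1.32 (adjusted p = 0.00153). Of 18 oxidative stress genes 3 fell and none rose in MT1, where 1.21% of all genes fell. HMOX1, heme oxygenase, went from 8.26 and 8.66 to 7.51 and fell by 0.95 ± 0.18 (adjusted p = 0.00124), against 1.38 in TK6 and a panel median of 0.02. CAT, catalase, fell by 0.42 and TXNRD1, thioredoxin reductase, by 0.52. HMOX1 and CAT kept their calls without either untreated array, and TXNRD1 did not without replicate 1 (adjusted p = 0.0722). SLC30A1, a zinc exporter outside the lists, went from 9.36 and 9.18 to 8.26 and fell by 1.01 ± 0.12 in MT1 (adjusted p = 1.19e-06) and by 0.47 in TK6, with no panel line as low. The difference between the lines for SLC30A1 was -0.02 when all its probe sets were averaged. Of all MT1 falls, 52.7% lay below every panel line.

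Of 20 unfolded protein response genes 5 rose, none fell and 15 did not pass in MT1, with a median of 0.03, against 2.36% of all genes rising. In TK6 5 rose and 10 fell, where 21.6% of all genes rose and 19.5% fell. HSPA5, the ER chaperone BiP, rose from 10.9 and 10.8 to 11.2 in MT1 (0.39 ± 0.09, adjusted p = 0.0126) and fell by 0.31 in TK6. SDF2L1, an ER chaperone cofactor, rose by 0.58 in MT1 and did not pass in TK6 (-0.20). Neither passed in MT1 without untreated replicate 2 (adjusted p = 0.0555 and 0.208), and HSPA5 lay at -0.05 with median-centred arrays. Of 13 heat shock genes 2 rose and 1 fell. DNAJA1, an HSP40 co-chaperone, rose by 0.52 in MT1 and 1.67 in TK6, and HSPE1, a mitochondrial chaperonin, by 0.51 in MT1, with 0.24 in TK6. Both kept their calls without either untreated array, and with every array included they lay at -2.13 and -2.71.

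TNFSF10, BMP2 and IL1R2 were among the 12 largest rises of MT1. TNFSF10, the death ligand TRAIL, went from 6.02 and 5.55 to 7.30 in MT1 and rose by 1.51 ± 0.29, or 2.86-fold (adjusted p = 0.00119), against 3.40 in TK6. BMP2, a growth factor of the TGF-beta family, went from 6.27 and 6.10 to 7.68 in MT1 and rose in both lines, by 1.91 in TK6. IL1R2, the decoy receptor for interleukin-1, went from 7.30 and 6.32 to 8.18 and rose by 1.37 ± 0.27, and in TK6 by 1.63. In all 3 genes the MT1 change of the brightest probe set was above that of every panel line, as for 148 of the 326 MT1 rises (45.4%). A second IL1R2 probe set, at a level of 7.98, changed by 0.58. The other probe sets of BMP2 (0.03) and TNFSF10 (0.50 and 0.54) lay at levels below 7. The difference between TK6 and MT1 passed for TNFSF10 (1.88, adjusted p = 1.11e-04) and not for BMP2 (0.41, 95% confidence interval -0.40 to 1.23) or IL1R2 (0.26, -0.45 to 0.97). IL1R2 did not pass without untreated replicate 2 (0.88, adjusted p = 0.0831). IFNG, the cytokine interferon gamma, which was chosen after its values were seen, rose from 6.26 and 5.99 to 7.15 in MT1 (1.02 ± 0.15) and by 3.28 in TK6.

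Of 21 NF-kB and feedback genes 2 rose and none fell in MT1, against 15 rises in TK6. Over all genes 2.36% rose in MT1 and 21.6% in TK6. BCL2A1, an anti-apoptotic target of NF-kB, went from 8.62 and 8.78 to 9.45 in MT1 and rose by 0.75 ± 0.09 (adjusted p = 1.28e-06), above all 19 panel lines, and by 1.88 in TK6. CCL4, a chemokine, rose by 0.72 in MT1 and 3.71 in TK6. Of 24 interferon genes 3 rose and none fell in MT1, with a median of 0.20, against 19 rises and a median of 1.26 in TK6. They were GBP1 (0.56 in MT1, 3.19 in TK6), IFIT1 (0.53 and 1.84) and IRF9 (0.44 and 1.91), a guanylate-binding protein, an antiviral protein and a subunit of the interferon transcription factor. None of the 3 passed without untreated replicate 1 (adjusted p = 0.361, 0.196 and 0.0701), and CCL4 did not without replicate 2 (0.0516). CD83, a B-cell activation marker, rose by 0.44 in MT1 and 1.96 in TK6 and kept its call without either array, as did BCL2A1, TNFSF10, BMP2 and IFNG. HLA-DMB, which helps load peptides on HLA class II, was the only called gene among 12 class II genes (0.46 in MT1, 2.31 in TK6), and without untreated replicate 2 it had an adjusted p of 0.0517.

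Of 17 immediate early genes 4 rose in MT1 and MYC fell, where 2.36% of all genes rose and 1.21% fell. IER3, a stress and NF-kB response gene, went from 8.38 and 8.18 to 9.20 and rose by 0.92 ± 0.15 (adjusted p = 1.25e-04), against 1.21 in TK6, and kept its call without either array. IER5 rose by 0.65 in MT1 and 1.55 in TK6, with an adjusted p of 0.0506 without untreated replicate 2. Among genes of B-cell identity 3 of 22 rose, with MS4A1, the surface protein CD20, at 0.47 and POU2AF1, a B-cell coactivator, at 0.43. MS4A1 did not exceed 6.88 on the MT1 arrays.

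**Figure D4:**
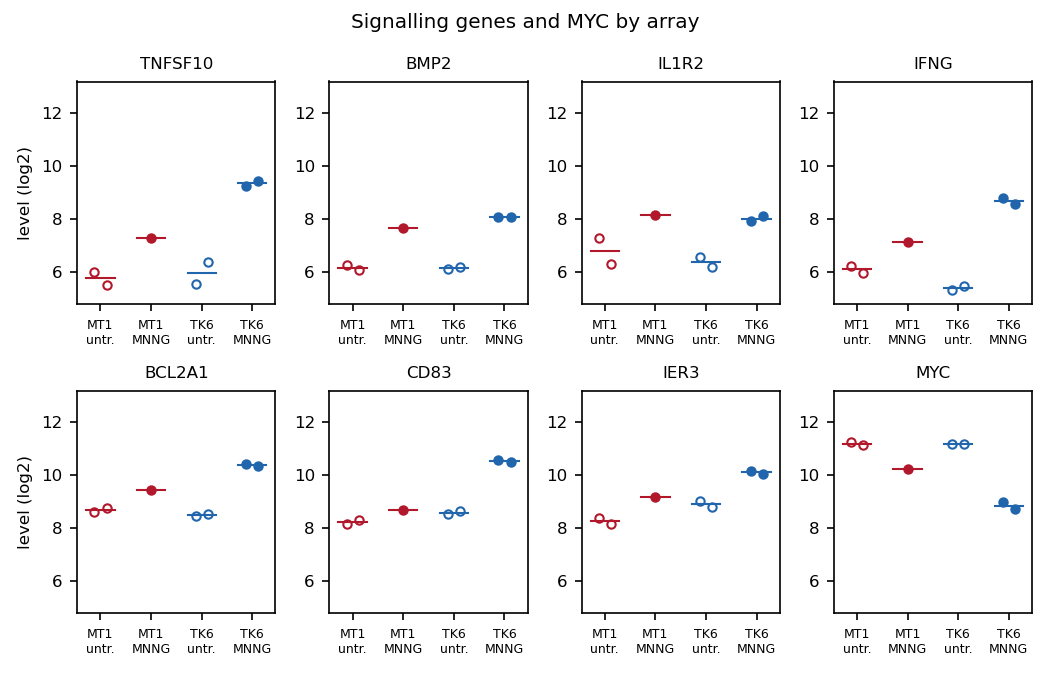
Levels (log2) of 7 signalling genes and MYC on each array of MT1 and TK6, untreated as open and MNNG as filled circles, with a line at the group mean. TNFSF10, BMP2, IL1R2, IFNG, BCL2A1, CD83 and IER3 lie higher with MNNG in both lines, and MYC falls from 11.2 and 11.1 to 10.2 in MT1.

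Genes of DNA replication and the checkpoint rose in small numbers. Of 31 G1/S genes 4 rose and none fell in MT1 (median 0.06), against 25 rises and 3 falls in TK6 (median 0.58). The share of all genes that rose was 2.36% in MT1 and 21.6% in TK6. CCNE2, a cyclin that starts S phase, rose by 0.74 in MT1 and 1.56 in TK6, and GINS3, part of the replicative helicase, by 0.48 and 0.54. FEN1, the flap endonuclease of Okazaki fragment maturation, went from 9.73 on both arrays to 10.2 and rose by 0.47 ± 0.07 (adjusted p = 3.31e-05), against 1.07 in TK6. Of 22 checkpoint genes 2 rose: TIPIN, of the fork protection complex, by 0.65 ± 0.10, from 7.68 and 7.60 to 8.29, and RAD1, of the checkpoint clamp, by 0.46 on its brightest probe set. The other 4 bright RAD1 probe sets lay at -0.10, -0.03, 0.27 and 0.30, and the mean of all was 0.18 (adjusted p = 0.402). TIPIN and RAD1 rose by 0.61 and 0.43 in TK6, and the differences did not pass (-0.04, 95% confidence interval -0.29 to 0.21, and -0.03, -0.35 to 0.30). FEN1 and TIPIN kept their calls without either untreated array, CCNE2 and RAD1 lost theirs without either one (adjusted p from 0.0514 to 0.135), and GINS3 did without replicate 2 (0.0691). H2BC12, a histone H2B gene with polyadenylated transcripts, went from 8.38 and 8.66 to 9.19 in MT1 (0.68 ± 0.08) and rose by 3.59 in TK6. MKI67, a marker of cycling cells, fell by 0.70 on its brightest probe set and changed by -0.27 over all of them (adjusted p = 0.320), and its adjusted p was 0.129 without untreated replicate 1.

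The repair genes that act on the lesion itself did not pass in MT1. Of 18 mismatch repair genes tested none rose or fell (median 0.04), while 9 rose and 3 fell in TK6. Over all genes 3.56% were called in MT1, so none of 18 lies near that share. In TK6 21.6% of all genes rose and 19.5% fell. At an unadjusted limma p below 0.05 there were 3 of the 18 in MT1, all with higher values, and 2121 of all genes. MSH6, the subunit that is mutated in MT1, was still detected, at 9.34 and 9.37 untreated and 9.20 with MNNG, a change of -0.15 ± 0.10 (95% confidence interval -0.34 to 0.04), and in TK6 it fell by 0.22 from 9.41 and 9.54. A second MSH6 probe set, at a level of 8.71, changed by -0.73 in MT1, and the mean over all MSH6 probe sets by -0.29 (adjusted p = 0.0864). The array gives the amount of transcript and not whether the protein works. MSH3, the partner of the other recognition dimer, was at 0.08 on its brightest probe set and -0.36 on a second, and EXO1, the exonuclease that removes the mismatched strand, at 0.03 against a rise of 0.66 in TK6. PCNA, the sliding clamp, was at 0.33 in MT1 and rose by 1.13 in TK6. MGMT lay at 5.21, 5.33 and 5.14, near the bottom of the scale, on the 3 MT1 arrays. Of 22 genes of direct reversal and base excision repair FEN1, described above, was the only one called. MPG, the glycosylase for methylated purines, was at -0.08 and ALKBH2, a demethylase, at 0.22.

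Genes of glycolysis and hypoxia set MT1 and TK6 apart in the other direction. Of 34 tested, 1 rose and 4 fell in MT1 (median -0.09), against 1 rise and 26 falls in TK6 (median -0.96), where 19.5% of all genes fell. In 23 the change was more negative in TK6, as for 12.5% of all genes. PFKFB4, a regulator of glycolytic flux, was at 6.66 and 6.95 untreated and 6.50 with MNNG in MT1, and went from 9.65 and 9.63 to 5.69 and 5.34 in TK6. BNIP3, a mitophagy receptor induced by hypoxia, was at 8.12, 7.98 and 8.18 in MT1 and went from 11.2 and 11.0 to 8.14 and 8.04 in TK6. In both genes the untreated level of MT1 was already lower than that of untreated TK6, and no arrays of the 2 untreated groups overlapped. ANKRD37 and ALDOC, further hypoxia-induced genes, were at 0.00 and -0.32 in MT1 and fell by 3.18 and 3.40 in TK6. The falls in MT1 included P4HA1, a collagen prolyl hydroxylase subunit, by 0.57, and PFKM, a phosphofructokinase, by 0.42, and the rise was EGLN1, the prolyl hydroxylase that marks HIF for destruction, by 0.46 where TK6 fell by 1.79. None of these 3 passed without untreated replicate 1 (adjusted p = 0.0622, 0.0534 and 0.184).

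**Figure D5:**
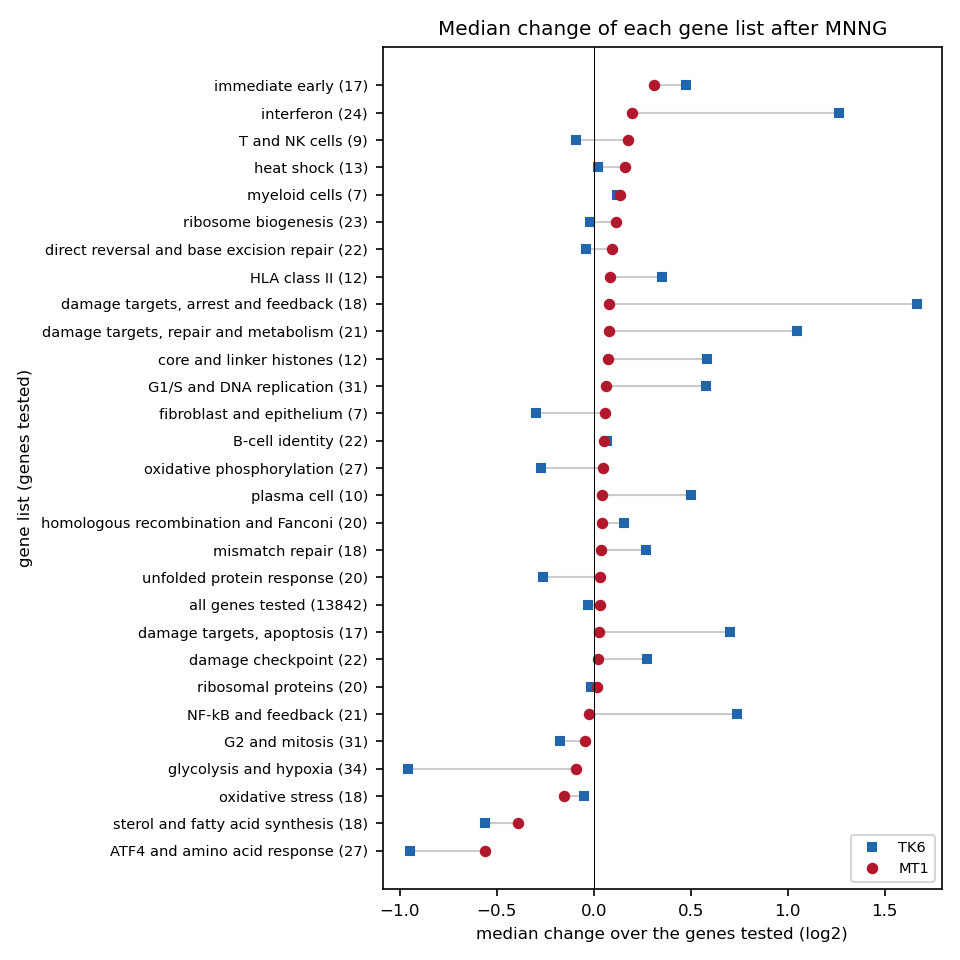
Median change after MNNG (log2) over the genes tested in each of 28 gene lists and over all genes, in MT1 (circles) and TK6 (squares), ordered by MT1. The MT1 medians lie between -0.56 and 0.31 and the TK6 medians between -0.96 and 1.67.

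The 12 largest rises of MT1 by the naming rule started from mean untreated levels of 5.40 to 8.94, and several did not pass in TK6. LINC00486, a noncoding RNA, went from 5.30 and 5.80 to 8.80 (3.26 ± 0.88, adjusted p = 0.0285), and LINC00944 from 5.22 and 5.57 to 7.58 (2.19 ± 0.35, adjusted p = 1.04e-04), while in TK6 they changed by -0.09 and -0.29 and did not pass. The panel lines ranged from -2.09 to 3.15 and from -2.34 to 2.02 for these RNAs, so they varied widely in other lines too. MUC13, a membrane mucin, went from 5.62 and 6.48 to 7.71, ARSB, a lysosomal sulfatase, from 5.42 and 6.18 to 7.23, and ASB13, a ubiquitin ligase adaptor, from 6.28 and 6.25 to 7.55. ASB13 fell by 0.58 in TK6, and the difference between the lines passed (-1.87, adjusted p = 2.39e-07). ZNF138, a zinc finger gene, went from 6.96 on both arrays to 8.40 and rose by 1.44 ± 0.25. SLC6A13, a GABA transporter, rose by 1.13 in MT1 and 1.72 in TK6, and ST20 by 1.13 and 0.94. MAP3K12, a kinase of the JNK pathway, went from 8.19 and 6.26 to 9.26, so its untreated arrays lay further apart than the MNNG array from the higher of them. It had an adjusted p of 0.557 without untreated replicate 2, where LINC00486 had 0.0567 and ST20 0.111, and without replicate 1 LINC00486, MUC13 and ARSB had 0.132, 0.184 and 0.109. LINC00944, ASB13, ZNF138 and SLC6A13 kept their calls without either untreated array. The rises of the noncoding RNAs each rest on 1 probe set: the others of LINC00486 changed by 0.08 and -0.17, and those of LINC00944 by -0.06, 0.01 and -0.15, all at levels below 6. Several other rises also rest on 1 probe set at a level of at least 7. Their remaining probe sets, all below 7, changed by -0.01 for ZNF138, 0.07 for SLC6A13, 0.27 for ST20 and 0.38 for MUC13. Those of MAP3K12 changed by 0.37 and 0.36, and those of ARSB by 0.54, -0.07 and 0.41.

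Most of the largest single falls of MT1 had values below 0 in TK6 and in the panel too. GLG1, a Golgi glycoprotein, went from 9.42 and 9.39 to 8.20 and fell by 1.21 ± 0.11 (adjusted p = 3.32e-09), and BPTF, a chromatin remodelling subunit, from 9.31 and 9.19 to 8.05. The other 3 bright probe sets of BPTF changed by -0.06, -0.33 and -0.34, and its mean over all probe sets by -0.32 (adjusted p = 0.0135). Another bright GLG1 probe set changed by -0.31 and another of WASHC4 by -0.12. TM9SF4 fell by 1.19, GLUD1, glutamate dehydrogenase, by 1.14, and WASHC4, of an endosomal actin complex, by 1.09. In TK6 these 5 genes changed by -0.61 to -1.43, and the panel medians were -0.58 to -0.70. GMPS, of GMP synthesis, and RIF1, a replication timing factor, fell by 0.99 and 0.98 on their brightest probe sets, but over all probe sets changed by -0.06 and -0.10 (adjusted p = 0.862 and 0.722). GLUD1 and GMPS did not pass without untreated replicate 2 (adjusted p = 0.156 and 0.200). RASEF, a Rab GTPase, fell by 1.00 in MT1, with an adjusted p of 0.0526 without replicate 2, and rose by 1.02 in TK6. Beside these falls, the 3' probe set of ACTB exceeded its 5' probe set by 0.57 log2 units on the MT1 MNNG array, against 0.36 and 0.23 on the untreated MT1 arrays and -0.08 to 0.49 on the other arrays kept. The same value was 6.64 on the MT1 array left out. Among the other arrays kept its median was 0.055 on the 50 untreated arrays and 0.285 on the 29 MNNG arrays. The part of this 3' excess in the falls was not tested.

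Across genes the MT1 change correlated with the TK6 change at r = 0.28 and with the median panel change at r = 0.62. These correlations are over 13842 genes, which are not independent replicates, and the MT1 and panel arrays share the normalisation. The 8 largest differences in each direction between TK6 and MT1 were mostly genes that hardly moved in MT1. LCE1B, a gene of the cornified envelope, was at 0.04 in MT1 and 6.81 in TK6, FSCN1, an actin bundler, at -0.03 and 4.27, CYP4F3, a fatty acid hydroxylase, at 0.43 and 4.63, and MMP9, a gelatinase, at 0.50 and 3.98. LGALS9, a galectin, was at -0.83 in MT1 and did not pass (adjusted p = 0.187), against 3.18 in TK6. MZB1, a plasma cell chaperone, was at 0.18 in MT1 and fell by 2.72 in TK6.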

How the data were processed

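Biotin-labelled cRNA of 26 lymphoblastoid lines had been hybridised to Affymetrix arrays with 54675 probe sets. The authors deposited PLIER intensity values, PLIER being named in the submitters' processing notes without a version or settings. By their range the values are linear, with a floor near 16. Here log2 of the value plus 16 was taken, and the 82 arrays kept were quantile normalised. Probe sets with a single symbol in the platform annotation (41097) were used, the brightest on average standing for each of 19775 genes, and the dimmest 30% of genes were dropped, which left 13842. Fold changes near the floor are understated.

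A limma model with a mean for each of 47 groups gave the MT1 response, the TK6 response and their difference, with a trended prior, 35 residual degrees of freedom and Benjamini-Hochberg adjustment. Confidence intervals come from the same moderated fit. Panel values are the change of each line. The members and the 28 gene lists (618 entries) were chosen with earlier results of these data known. Named genes were the 12 largest MT1 rises and falls at a level of at least 7 whose MNNG array lay outside both untreated arrays, the 8 largest differences each way between the lines, up to 3 called genes of each list, and a list of DNA repair and damage genes. Other genes named, mostly further list members, were chosen after their values were seen. Promoter sequences are from RefSeq (GRCh38.p14), matched by symbol for 11079 of the genes tested. Replicate numbers were not taken as pairs: in 9 lines with duplicates in both groups, same-numbered arrays deviated together (correlation over 0.1) in 2, although those of untreated MT1 and TK6 did (0.385). Alternatives were another pseudocount, scaling, filter, probe set rule, prior, set of arrays or samples, a replicate block, and leaving out single arrays. The fit was also run on simulated data with the same normal noise for a gene on every array. That run cannot test whether the lone MNNG array varies like the others. Fits used limma 3.58.1 in R 4.3.3, tables were read by data.table (version 1.17.8), and plots were drawn by matplotlib 3.10.9 under Python 3.11.15. Some genes are not reported here.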

Additional observations from a re-analysis of the deposited data

Results flagged for a closer look

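The test of the TK6 response against the MT1 response passed for 3415 genes, and the main genes of the report with such a difference are given here with the TK6 change minus the MT1 change in log2 units. The causes of these differences were not tested.

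Arrest and feedback genes with the more positive change in TK6 were CDKN1A (2.87), MDM2 (2.44), SESN1 (2.04), TRIM22 (2.08), PPM1D (2.06), GADD45A (1.36), ZMAT3 (1.89) and ATF3 (1.07). SESN2, a further sestrin gene that inhibits mTORC1, lay at 1.67. The apoptosis genes among them were PMAIP1 (1.16), FAS (1.33), TNFRSF10B (0.95), AEN (1.45) and TNFSF4 (4.07), and those of repair and metabolism were TIGAR (2.07), RPS27L (0.99), XPC (2.37), DDB2 (1.07), RRM2B (2.17), POLH (1.32), PCNA (0.80) and EXO1 (0.62).

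Amino acid response genes with the more negative change in TK6 were AARS1 (-1.16), CTH (-2.23), SLC3A2 (-0.66), ASNS (-2.29), STC2 (-2.10), PHGDH (-2.09), ATF4 (-0.62) and TRIB3 (-1.78), and those with the less negative or opposite change were WARS1 (1.81) and CEBPB (0.47). Growth, redox and chaperone genes were MYC (-1.38), NOP58 (-0.41), RRS1 (-0.47), SCD (-1.61), SLC30A1 (0.54), CAT (-0.46), HSPA5 (-0.71), SDF2L1 (-0.79) and DNAJA1 (1.14). Signalling, interferon and presentation genes were TNFSF10 (1.88), BCL2A1 (1.13), CD83 (1.51), CCL4 (2.98), IFIT1 (1.31), IRF9 (1.47), GBP1 (2.62), IER5 (0.89), HLA-DMB (1.85) and IFNG (2.25).

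Replication, histone and demethylase genes were CCNE2 (0.82), FEN1 (0.59), H2BC12 (2.91) and ALKBH2 (-0.43). Glycolysis and hypoxia genes were PFKM (-0.36), P4HA1 (-1.93), EGLN1 (-2.25), PFKFB4 (-3.82), ALDOC (-3.08), BNIP3 (-3.10) and ANKRD37 (-3.18). The MT1 rises with a smaller or opposite change in TK6 were LINC00486 (-3.35), LINC00944 (-2.47), MUC13 (-2.22), ZNF138 (-0.95), ARSB (-1.12) and ASB13 (-1.87), and RASEF, which fell in MT1, lay at 2.02. Other genes with large differences were LCE1B (6.77), FSCN1 (4.30), CYP4F3 (4.20), LGALS9 (4.01), MMP9 (3.48) and MZB1 (-2.89).

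Of these genes RRS1, SLC30A1, ALKBH2, LINC00486, ARSB, SLC3A2, CEBPB, ATF4, PFKM, NOP58 and ZNF138 lost the call in at least 1 fit without a single MT1 or TK6 array. TNFRSF10B, ZNF138 and SLC30A1 lost it with the mean of all probe sets.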

How the results depend on the processing

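The MT1 comparison rests on 1 MNNG array, and the log2 scale compresses changes of genes near its bottom. The number of genes called in MT1 (493) was 14 with every array included (8 up, 6 down), 99 on values as deposited (92 up, 7 down), 67 with median-centred arrays (15 up, 52 down), 1 with TK6 and MT1 arrays alone, 2 with MT1 arrays alone, and 212 to 329 without 1 of the untreated MT1 arrays. At 1.5-fold (185) the same settings gave 14, 78, 67, 1 and 2, with 106 for a pseudocount of 64, 108 for the mean of all probe sets, and 136 to 189 without an untreated array. The number of differences between the lines (3415) was 126, 1294 (552 up, 742 down), 1682 (1152 up, 530 down) and 2131 (1088 up, 1043 down) for every array, values as deposited, median-centred arrays and TK6 and MT1 arrays alone, and 2880 to 3137 without single arrays. Falls of ATF4 list genes (14) numbered 0, 3, 0 and 0 with every array, as deposited, and in the fits of TK6 and MT1 or MT1 alone, and 7 to 12 without an untreated array. Rises of damage targets in MT1 (3) numbered 0, 1, 0, 0 and 0 with every array, as deposited, median-centred and in the smaller fits, and 1 to 3 without an untreated array. Damage targets changing more in TK6 (40) numbered 6 with every array and 36 to 40 without single arrays. The smaller fits hold fewer arrays to estimate the spread; other causes were not tested. A pseudocount of 1, both other filters and no trend left each of these counts within 1.5 times.

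The replicate block, which pairs arrays by number, gave 740 calls in MT1 (479 up, 261 down), including all 493, and 283 at 1.5-fold. It gave 3787 differences between the lines. Between the untreated and MNNG groups of 9 lines, same-numbered arrays deviated with correlations from -0.62 to 0.14, median -0.04. Untreated MT1 and untreated TK6 arrays of the same number deviated together (0.385), so a shared effect of the number in these groups may be present, and the MT1 MNNG array kept is a replicate 2.

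Named genes changed sign mainly with every array included. The MT1 changes there were 0.26 for PMAIP1, -1.05 for TIGAR, -2.55 for RPS27L, 0.15 for WARS1, -0.40 for RRS1, -2.32 for HSPA5, -0.81 for SDF2L1, -2.13 for DNAJA1, -2.71 for HSPE1, -1.22 for BCL2A1, -1.26 for FEN1, -0.28 for TIPIN, -0.64 for EGLN1, 0.39 for WASHC4 and -0.30 for MS4A1. The differences between the lines there were 0.48 for AARS1, 1.55 for ATF4, 1.05 for MYC, 0.45 for RRS1, 1.67 for CAT, 2.00 for HSPA5, 0.62 for SDF2L1 and 0.43 for PFKM. With the mean of all probe sets the difference was -0.021 for SLC30A1, and with median-centred arrays HSPA5 changed by -0.048 in MT1.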
